A study of Mus musculus with 6 samples.

Results

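The adhesion molecules described here are the integrin chains, the classical and related cadherins, a set of immunoglobulin-type adhesion molecules and the hyaluronan receptor CD44, measured in murine cancer cells after exposure to withaferin A, a lactone with a steroid skeleton made by the plant Withania somnifera. Members were taken by gene symbol from the platform annotation of an Illumina mouse bead array, as every symbol that begins with Itga, with Itgb and a digit or with Cdh and a digit, together with Vcam1, Icam1, Icam2, Alcam, Mcam, Ncam1, Cd44 and L1cam. They comprised 145 of 45281 probes and 60 of 19057 genes with a symbol. One group held 3 arrays from cells given 8 µM withaferin A for 6 h, and the other held 3 arrays from untreated cells. All cells expressed rat her-2/neu, an oncogene that encodes a tyrosine kinase receptor, and were grown in medium with 20% serum at passages 2, 3 and 4. The promoter that drives the oncogene and the tissue of origin are not given in the sources used here. Which array came from which passage is not labelled, and p-values here reflect only how far these arrays differ, which may be technical.

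Integrins are heterodimers of an alpha and a beta chain that hold cells to matrix proteins and, on some cells, to immunoglobulin-type counter-receptors. Cadherins bind their own kind on neighbouring cells through calcium-dependent contacts and are coupled to actin by catenins. Immunoglobulin-type molecules such as VCAM1 and ICAM1 are ligands of leukocyte integrins, and their genes are classical targets of the transcription factor NF-kB, while CD44 binds the matrix polysaccharide hyaluronan.

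Of the 60 member genes, 22 could be tested, by 37 of the 145 probes, since a probe had to rise above background (detection p under 0.05) on no fewer than 3 arrays. A further 7 genes had a probe above background on 1 or 2 arrays, and 31 were above background on no array. The cadherin family was the most sparsely detected, with 2 of 23 genes tested, against 8 of 17 integrin alpha chains, 4 of 8 beta chains, 5 of 7 immunoglobulin-type genes and Cd44. Withaferin A arrays showed 33, 34 and 34 of the 145 member probes above background, against 38, 41 and 40 on untreated arrays 1 to 3. Every withaferin A array thus had fewer member probes above background than every untreated array. Over all 45281 probes the counts were 18275 to 18558 on withaferin A arrays and 18608 to 20104 on untreated arrays, in the same order.

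**Figure D1:**
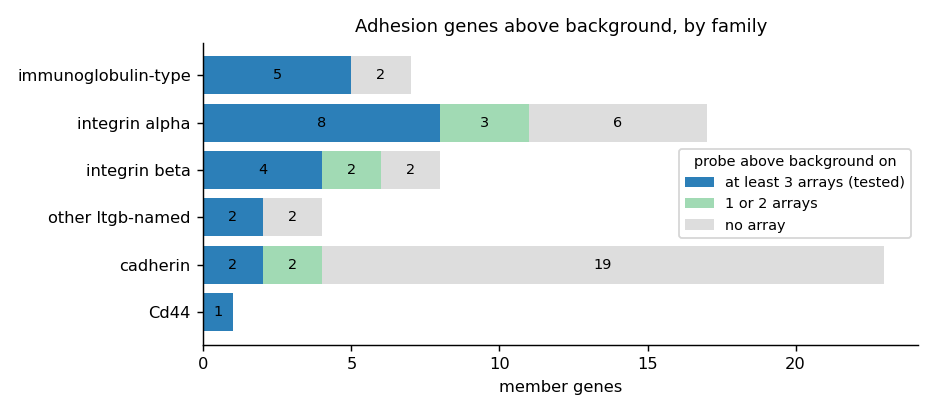
Number of member genes in each family, split by whether at least 1 probe was above background on at least 3 arrays (tested), on 1 or 2 arrays, or on no array. Of 23 cadherin genes 19 were on no array, whereas 8 of 17 integrin alpha genes were tested.

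Members with a probe on 1 or 2 arrays were Cdh23, Cdh24, Itga4, Itgad, Itgal, Itgb3 and Itgb7. Itga4 encodes the alpha 4 chain of the main VCAM1 receptor, and 1 of its 6 probes was above background on 1 untreated array. Those above background on no array included Cdh3 (P-cadherin), Cdh5 (the endothelial VE-cadherin), Cdh11, Icam2, L1cam, Itga7, Itga9, Itga11, Itgam, Itgax, Itgae, Itgb6 and Itgb8. The others were Cdh4, Cdh6 to Cdh10, Cdh12, Cdh13, Cdh15 to Cdh20, Cdh22, Cdh26, Itgb1bp2 and Itgb2l. Raw intensities of the untested genes did not exceed 96.2 on any array, against a median of 77.1 to 81.9 over all probes of an array.

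The cells carried transcripts of both epithelial and mesenchymal markers. Of 10 epithelial markers 9 were tested, among them Krt8, Krt18 and Cdh1, whereas Epcam was on no array. Of 12 mesenchymal markers 9 were tested, among them Vim, Fn1 and Cdh2, whereas Snai2, Pdgfrb and Col1a1 were on no array. Cdh2 was dim, with raw intensities of 85.8 to 110.3. The pan-leukocyte gene Ptprc and the endothelial genes Pecam1 and Cdh5 were on no array, and 0 of 8 endothelial and 3 of 12 leukocyte, 1 of 4 platelet and 1 of 5 muscle markers were tested. Among leukocyte markers Cd14 was above background on 3 arrays of each group, and Itgb2 and Csf1r were the others tested. Summed epithelial marker intensity after normalization was 11299 to 15182 on withaferin A arrays and 14731 to 17157 on untreated arrays, and the mesenchymal sum was 14590 to 20582 on withaferin A arrays and 21601 to 23404 on untreated arrays. The mesenchymal sums did not overlap, but they are weighted to the brightest markers, Vim and Fn1, whose own arrays overlapped between groups. Of the mesenchymal markers 1 (Pdgfra) fell and 8 did not pass. In bulk RNA, fewer cells of a kind and less RNA per cell cannot be told apart, and the part of these sums in the results below was not tested. Before normalization, median raw intensity over tested probes was 191.8 to 202.0 on withaferin A arrays and 218.5 to 235.9 on untreated arrays.

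Levels below are log2 intensities after background correction and quantile normalization. Changes are withaferin A minus untreated on that scale, tested with limma over 19077 probes with Benjamini-Hochberg adjustment and a threshold of 0.05. Where a gene has several tested probes, the one with the highest mean stands for it. Of the 22 tested members 4 passed, 1 higher and 3 lower with withaferin A, and 18 did not. Among all 9756 tested genes 6.83% passed, 2.81% as higher and 4.02% as lower. Of the 37 tested member probes 6 passed, against 5.9% of all tested probes. Of the 4 called genes, 3 were immunoglobulin-type genes (Vcam1, Mcam and Alcam) and the other was an integrin alpha chain (Itga1). The median change was -0.18 over the 22 members and 0.0054 over all tested genes. Array values of the groups did not overlap for 8 of the 22 members, against 30.7% of all tested genes, and 7 of the 22 had an unadjusted p under 0.05, against 26% of all.

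**Figure D2:**
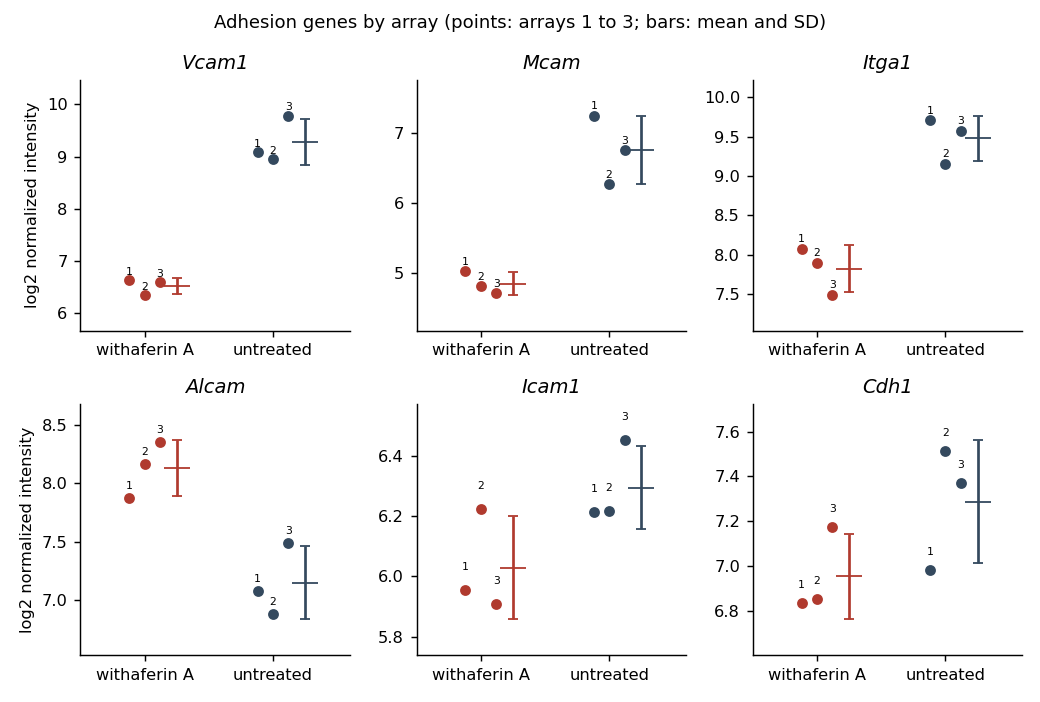
Log2 normalized intensity of 6 adhesion genes on each array (points, numbered 1 to 3), with the mean and SD of each group of 3; each panel has its own vertical axis. Vcam1, Mcam and Itga1 lie lower and Alcam higher on every withaferin A array than on any untreated array, whereas Icam1 and Cdh1 overlap between groups.

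Vcam1, the cytokine-inducible ligand of the alpha 4 integrins, was on every array and showed the steepest fall of the members. Raw intensity of its probe was 140.9, 129.7 and 142.9 on withaferin A arrays 1 to 3 and 673.7, 618.1 and 923.8 on untreated arrays 1 to 3. After normalization these were 6.63, 6.35 and 6.59 with withaferin A and 9.09, 8.96 and 9.79 without it. The highest withaferin A array thus lay more than 2 log2 units under the lowest untreated array. The mean was 6.53 ± 0.15 in withaferin A cells and 9.28 ± 0.45 in untreated cells (SD, n = 3 each), a change of -2.75 (SE 0.22, limma adjusted p = 0.000154). By size it ranked 3 among the 392 genes called lower. The fold was 6.73 with background correction and 4.22 without it. The 3 other Vcam1 probes were above background on no array and were not tested, so the fall rests on 1 probe.

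Icam1, the ligand of leukocyte beta 2 integrins, did not pass and was dim, with raw intensities of 108.8 to 147.3. Its levels were 5.96, 6.22 and 5.91 on withaferin A arrays 1 to 3 and 6.21, 6.22 and 6.45 on untreated arrays 1 to 3. Withaferin A array 2 and untreated arrays 1 and 2 were nearly level, so the groups overlapped. The change was -0.27 (SE 0.16, limma adjusted p = 0.343), with a 95% confidence interval of -0.63 to 0.09. Without normalization between arrays it was -0.55 (limma adjusted p = 0.0509). The difference between the changes of Vcam1 and Icam1 was not tested.

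Mcam, the melanoma cell adhesion molecule CD146, which is found on endothelial, smooth muscle and many tumour cells, fell. Its brightest probe read 5.02, 4.81 and 4.70 on withaferin A arrays 1 to 3 and 7.25, 6.27 and 6.75 on untreated arrays 1 to 3. That probe rose above background on 1 withaferin A array and all 3 untreated arrays, so the level after treatment lay near the detection limit. Most withaferin A values in the fold given next were thus not above background. All 3 Mcam probes met the detection filter only through their untreated arrays. That selection favours a fall, so the Mcam calls are no independent support. The change was -1.91 (SE 0.24, limma adjusted p = 0.00253), a fold of 3.76. That fold was 1.83 without background correction and 2.00 in the deposited value table, where the call also held. The second probe was 2.00-fold lower and passed (adjusted p = 0.0126), and the third had a change of -0.88 that did not (adjusted p = 0.0770), though its arrays did not overlap between groups.

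Alcam (CD166), an immunoglobulin-type molecule that binds itself and the T-cell surface protein CD6, was the 1 member called higher. Levels were 7.87, 8.16 and 8.35 on withaferin A arrays 1 to 3 and 7.08, 6.88 and 7.49 on untreated arrays 1 to 3. Every withaferin A array exceeded every untreated array. Its rise was 1.98-fold (log2 change 0.98, SE 0.20, limma adjusted p = 0.0245). Alcam no longer passed when withaferin A array 2 (adjusted p = 0.0758), untreated array 1 (adjusted p = 0.0661) or untreated array 2 (adjusted p = 0.0677) was left out, or with no filter on dim probes (adjusted p = 0.0924).

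Ncam1, the neural cell adhesion molecule, was dim, with 4.86, 5.10 and 5.46 on withaferin A arrays and 5.08, 5.28 and 4.76 on untreated arrays. It was above background on 2 arrays of each group. The change of 0.10 (95% confidence interval -0.36 to 0.56) did not pass (limma adjusted p = 0.809), and its sign turned without normalization between arrays (-0.029). Over the 5 tested immunoglobulin-type genes the median change was -0.27, with a range from -2.75 (Vcam1) to 0.98 (Alcam).

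Among integrin alpha chains the collagen receptor chain Itga1 stood alone in passing. The alpha 1 chain pairs with beta 1 and binds collagen IV and other collagens. Its brighter probe read 8.07, 7.90 and 7.49 on withaferin A arrays 1 to 3 and 9.71, 9.15 and 9.57 on untreated arrays 1 to 3. The groups were separated by more than 1 log2 unit. Itga1 fell by 1.66 log2 units, or 3.15-fold (SE 0.21, limma adjusted p = 0.00261), and its second probe fell by 1.36 (SE 0.27, adjusted p = 0.0205). Both probes were above background on all 3 untreated arrays, and the second on 2 of 3 withaferin A arrays. The second thus met the detection filter only through its untreated arrays, a selection that favours a fall.

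The other collagen receptor chain tested, Itga2, did not pass, with levels of 7.77, 8.09 and 8.02 on withaferin A arrays and 7.69, 7.08 and 8.20 on untreated arrays. Untreated arrays 2 and 3 lay below and above all withaferin A arrays. The Itga2 change was 0.31 (95% confidence interval -0.28 to 0.89, limma adjusted p = 0.506). The difference between the changes of Itga1 and Itga2 was not tested.

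Itga5, the alpha chain of the classical fibronectin receptor, read 7.40, 7.59 and 7.57 on withaferin A arrays and 6.94, 6.67 and 7.42 on untreated arrays. Untreated array 3 reached the range of the withaferin A arrays. The change of 0.51 (95% confidence interval 0.06 to 0.97) did not pass (limma adjusted p = 0.161), nor did that of the second probe (0.35, adjusted p = 0.230). In the deposited value table the brighter probe did pass (0.37, adjusted p = 0.0367).

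Itga3, an alpha chain of laminin receptors, read 12.33, 12.26 and 12.13 on withaferin A arrays and 12.50, 12.23 and 12.51 on untreated arrays. Its interval was narrow, with a change of -0.17 (95% confidence interval -0.52 to 0.18, limma adjusted p = 0.533). Itga6, the partner of beta 4 in hemidesmosomes, had changes of 0.01, 0.20 and 0.25 at its 3 probes. None of the 3 Itga6 probes passed (adjusted p from 0.449 to 0.987), and the sign at the brightest turned without normalization between arrays (-0.27).

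Itgav, the alpha chain of many vitronectin receptors, had tested probes that disagreed in sign. Its brightest probe changed by -0.19 (limma adjusted p = 0.548), the second by 0.12 and the dimmest by 0.51 (adjusted p = 0.0957). Itga8, a chain of receptors for the tripeptide RGD, changed by -0.15 at its brighter probe (adjusted p = 0.701) and by -0.87 at its dimmer one (adjusted p = 0.0543), whose arrays did not overlap. Itga2b, the platelet chain of the fibrinogen receptor, was above background on 2 arrays of each group, with a change of 0.02 (adjusted p = 0.972), or -0.14 without normalization between arrays. Over the 8 tested alpha chains 4 changes were positive and 4 negative, 1 of them called, with a median of -0.07.

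**Figure D3:**
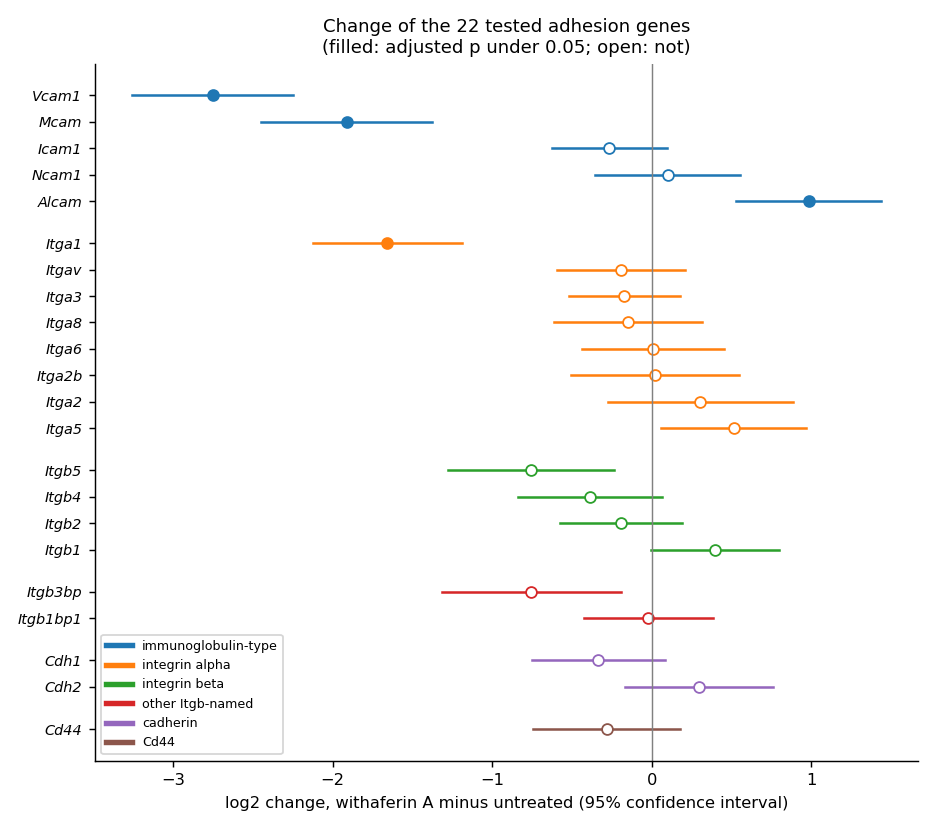
Log2 change (withaferin A minus untreated) of the 22 tested member genes by family, with 95% confidence intervals from limma; filled points passed an adjusted p of 0.05. Vcam1, Mcam and Itga1 lie left of 0 and Alcam right of it, and 4 of the 22 points are filled.

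No beta chain passed. Itgb5, the vitronectin receptor chain that pairs with alpha v, had the most negative change of the 4, with 9.45, 8.72 and 9.29 on withaferin A arrays 1 to 3 and 10.08, 10.11 and 9.54 on untreated arrays 1 to 3. The lowest untreated array lay just above the highest withaferin A array. The change was -0.76 (SE 0.23, 95% confidence interval -1.28 to -0.24, limma adjusted p = 0.0873). It passed in the deposited value table (-0.70, adjusted p = 0.0185) and without normalization between arrays (-1.02, adjusted p = 0.0185).

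Itgb1, the common partner of alpha 1, alpha 2, alpha 3 and alpha 5, read 9.56, 9.59 and 9.53 on withaferin A arrays and 9.35, 9.33 and 8.81 on untreated arrays. At its brighter probe the withaferin A arrays all lay above the untreated ones, unlike those of Itga1, a difference that was not tested. The groups overlapped at the second Itgb1 probe. The brighter probe changed by 0.39 (95% confidence interval -0.0072 to 0.80, limma adjusted p = 0.213) and the second by 0.10. In the deposited value table the brighter changed by 0.35 and passed (adjusted p = 0.0376). Itgb4, the hemidesmosome chain, read 11.70, 11.06 and 11.72 on withaferin A arrays and 11.91, 11.97 and 11.76 on untreated arrays. Both Itgb4 probes had non-overlapping groups, with changes of -0.39 and -0.45 that did not pass (limma adjusted p = 0.270 and 0.220). Itgb2, the leukocyte chain, was above background on 1 withaferin A array and 3 untreated arrays, with a change of -0.19 (adjusted p = 0.526).

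The symbol rule also brought in genes named after beta chains. Itgb3bp, which encodes a centromere protein also described as a binding partner of beta 3, read 8.27, 7.47 and 8.34 on withaferin A arrays and 8.79, 8.50 and 9.05 on untreated arrays. Its groups did not overlap, with a change of -0.76 (SE 0.25, limma adjusted p = 0.106). It passed in the deposited value table (-0.64, adjusted p = 0.00503) and without normalization between arrays (-1.04, adjusted p = 0.0136). Itgb1bp1, an inhibitor of beta 1 activation that binds its cytoplasmic tail, had a change of -0.02 (95% confidence interval -0.43 to 0.38, adjusted p = 0.959), with 0.12 without untreated array 2.

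Only 2 cadherin genes could be tested and 0 passed, with 0 at an unadjusted p under 0.05. Cdh1, E-cadherin of epithelial junctions, read 6.84, 6.85 and 7.17 on withaferin A arrays and 6.98, 7.51 and 7.37 on untreated arrays. Untreated array 1 lay below withaferin A array 3, so the groups overlapped. Its change was -0.33 (SE 0.19, 95% confidence interval -0.75 to 0.08, limma adjusted p = 0.304). Cdh2, N-cadherin of mesenchymal and neural cells, read 5.80, 5.30 and 5.72 on withaferin A arrays and 5.59, 5.37 and 4.97 on untreated arrays. Those groups overlapped as well, with a change of 0.30 (SE 0.21, 95% confidence interval -0.17 to 0.76, adjusted p = 0.412).

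Cd44 was covered by 9 probes, of which 5 were tested. Its brightest probe read 11.21, 11.01 and 10.98 on withaferin A arrays and 11.77, 11.24 and 11.03 on untreated arrays. All 5 tested probes had negative changes, from -0.55 to -0.11, and 0 passed. The brightest had a change of -0.28 (95% confidence interval -0.74 to 0.18, limma adjusted p = 0.435).

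**Figure D4:**
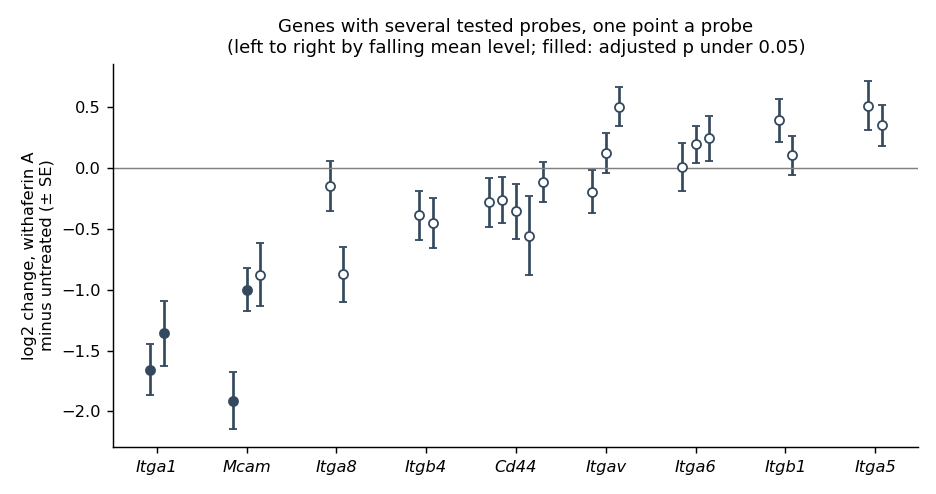
Log2 change (withaferin A minus untreated, bars are limma SE) at each tested probe of the 9 member genes with several tested probes, ordered within a gene from the highest to the lowest mean level; filled points passed an adjusted p of 0.05. Both Itga1 probes and 2 of 3 Mcam probes are filled, and Itgav alone has probes on both sides of 0.

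The upstream sequences of called members are shown so that the falls of Mcam and Itga1 and the rise of Alcam can be read beside their promoters. RefSeq windows (build GRCm38.p6) were matched by symbol for 15 of the 22 tested genes, including Mcam, Itga1 and Alcam but not Vcam1. The array's own build is not named, and the coordinates are those of the windows. Each line gives the 250 bases before the transcription start, with matches to a loose NF-kB motif (GGG, any 5 bases, then CC) on either strand in capitals.
Mcam, chr9:44134408-44134657, plus strand: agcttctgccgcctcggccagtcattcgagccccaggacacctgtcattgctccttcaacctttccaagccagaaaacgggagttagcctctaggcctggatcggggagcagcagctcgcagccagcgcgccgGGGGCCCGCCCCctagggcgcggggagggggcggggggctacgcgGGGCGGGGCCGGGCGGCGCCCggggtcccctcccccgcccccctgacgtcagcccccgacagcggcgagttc
Itga1, chr13:115101965-115102214, minus strand: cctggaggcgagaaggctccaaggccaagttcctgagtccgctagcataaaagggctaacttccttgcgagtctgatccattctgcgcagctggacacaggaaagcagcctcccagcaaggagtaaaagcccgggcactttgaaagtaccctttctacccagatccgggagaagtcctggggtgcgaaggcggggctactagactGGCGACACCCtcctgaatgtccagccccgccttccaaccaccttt
Alcam, chr16:52453082-52453331, minus strand: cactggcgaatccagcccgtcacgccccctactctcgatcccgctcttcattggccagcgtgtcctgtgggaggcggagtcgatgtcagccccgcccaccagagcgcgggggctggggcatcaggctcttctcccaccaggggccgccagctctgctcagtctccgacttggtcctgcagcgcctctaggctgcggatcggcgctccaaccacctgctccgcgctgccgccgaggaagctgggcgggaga
The Mcam window held 7 matches, most of them overlapping, which together cover 33 bases. The Itga1 window held 1, on the opposite strand 45 bases before the start, and the Alcam window held 0. The motif occurred in 45.8% of all 32851 windows of that length and in 11 of the 16 windows of member genes. Those belonged to 10 of the 15 genes, Icam1 among them. A match describes the letters and is not a binding site.

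**Figure D5:**
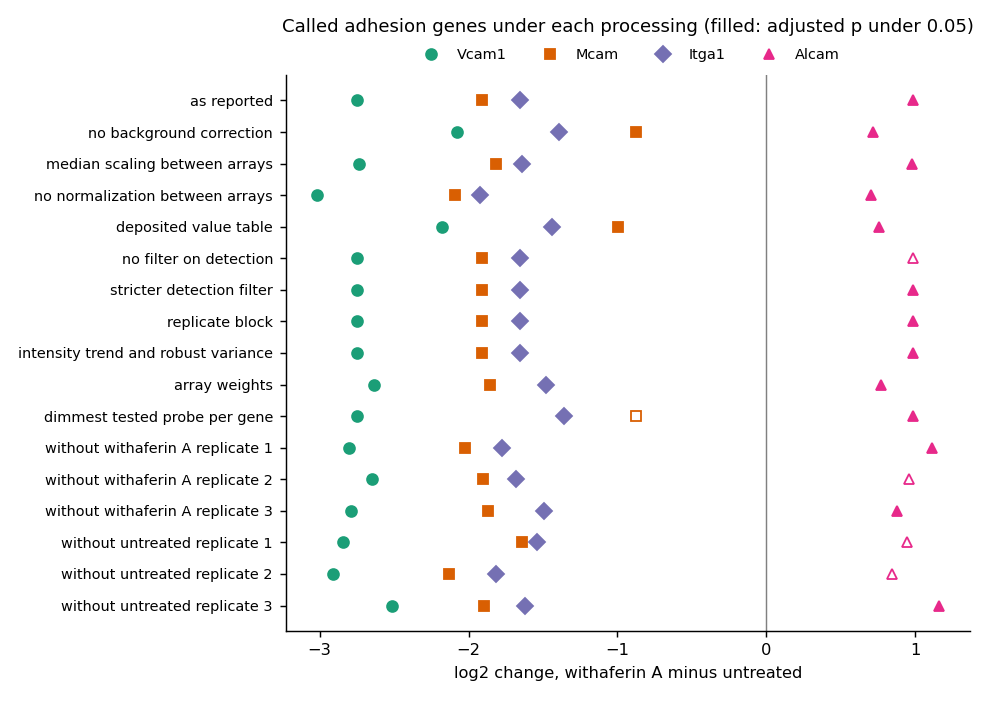
Log2 change (withaferin A minus untreated) of the 4 called members under each processing of the data, with filled points where the adjusted p was under 0.05. Every point of Vcam1, Itga1 and Mcam lies left of 0 and every point of Alcam right of it; the open points are 4 of Alcam and the dimmest probe of Mcam.

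Genes that work with the members were counted from lists chosen with earlier results of these data known. Their counts are set beside the 6.83% called among all tested genes as description, not as independent support. Catenins and genes listed with the cadherin complex showed 0 of 11 tested genes called by limma, with 1 (Limd1) at an unadjusted p under 0.05. Their median was -0.08, with changes between -0.28 and 0.44 (Limd1). Of these 11, 2 passed in the deposited value table, where 27.5% of all genes did. Of integrin adaptors and focal adhesion genes 3 of 31 passed, 1 higher and 2 lower, with a median of -0.02. Pdlim7, an adaptor of actin filaments, rose 2.36-fold (log2 change 1.24, SE 0.18, limma adjusted p = 0.00554). Fermt2, the integrin-activating kindlin-2, was 2.12-fold lower (log2 change -1.08, SE 0.19, adjusted p = 0.0125), and Kank1, a talin-binding protein at the rim of adhesions, fell by 0.89 (SE 0.21, adjusted p = 0.0404). Fermt2 did not pass with no filter on dim probes (adjusted p = 0.0597). The Kank1 call was lost in 6 of 16 alternatives (adjusted p up to 0.136), 4 of which leave out an array (withaferin A arrays 1 and 2, untreated arrays 2 and 3).

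Among other junction and adhesion receptors 5 of 31 passed, 2 higher and 3 lower, with a median of -0.04. Cadm1, an immunoglobulin-type molecule of epithelia and nerve, was above background on no withaferin A array and on all 3 untreated arrays. Its call was made on the measured change of -1.17 (limma adjusted p = 0.0287), which uses withaferin A values below background. Detection gives a level at least 1.52-fold lower, a bound that was not tested. That bound sets the dimmest signal above background of each withaferin A array against the untreated mean, on the background-corrected scale. Without background correction the measured Cadm1 fold was 1.43 and did not pass (adjusted p = 0.0630). Cadm1 met the detection filter only through its untreated arrays, a selection that favours a fall, so its call is no independent support. With a stricter filter (detection p under 0.01) it was not tested, and the list's count was 4, 2 higher and 2 lower. Pcdh1, a protocadherin, rose 1.86-fold (adjusted p = 0.0117), and Sdc1, the matrix-binding proteoglycan syndecan-1, rose 1.67-fold (adjusted p = 0.0318). Cd82, an integrin-associated tetraspanin, was 1.74-fold lower (adjusted p = 0.0495). The fifth was Cd47, the integrin-associated protein, named after its values were seen, to complete the count. Calls were lost in 6 of 15 alternatives for Cadm1 and in 8 of 16 for both Sdc1 and Cd82, and leaving out withaferin A array 1 or 2 brought the list's count to 1, untreated array 1 to 3, and untreated array 2 or 3 to 2.

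Matrix and soluble ligands of integrins and CD44 passed in 3 of 14 cases, with a median of -0.18. Thbs1, thrombospondin-1, which binds CD36, CD47 and several integrins, read 6.76, 6.23 and 7.38 on withaferin A arrays and 8.93, 9.08 and 9.36 on untreated arrays. It was 5.04-fold lower (log2 change -2.33, SE 0.27, limma adjusted p = 0.00154) and passed under all 16 alternatives. The related matricellular genes Ccn2 and Ccn1 were called in opposite directions, Ccn2 2.65-fold lower (adjusted p = 0.0325) and Ccn1 1.76-fold higher (adjusted p = 0.0402). Those calls were lost in 6 and 8 of 16 alternatives, and the list's count was 1 without withaferin A array 2, withaferin A array 3 or untreated array 2. Fn1, the fibronectin gene, did not pass (change -0.30, adjusted p = 0.486).

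Of transcription factors of the cadherin switch 1 of 9 passed. Tcf4, the E-protein E2-2, read 11.92, 12.01 and 11.86 on withaferin A arrays and 13.03, 13.02 and 13.12 on untreated arrays. It was 2.18-fold lower (log2 change -1.13, SE 0.14, limma adjusted p = 0.00263), but the change of -0.34 at its dimmest probe missed the threshold (adjusted p = 0.190). Snai1, Zeb1, Zeb2 and Twist1, repressors of Cdh1, had changes of 0.18, -0.39, -0.12 and -0.03, none called.

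NF-kB subunits and feedback genes passed as lower in 5 of 8 cases and as higher in 0, with a median of -1.28 beside the -2.75 of Vcam1 and the -0.27 of Icam1. The share of all tested genes called lower was 4.02%, and this list too was chosen with earlier results of these data known. Relb, a subunit whose gene is itself an NF-kB target, read 6.27, 6.41 and 6.32 on withaferin A arrays and 7.76, 7.67 and 8.06 on untreated arrays, a 2.82-fold lower level (log2 change -1.50, SE 0.16, limma adjusted p = 0.000940). The inhibitor Nfkbie, the cofactor Bcl3 and the deubiquitinase Tnfaip3 also fell, with changes of -2.38, -1.58 and -1.38 (adjusted p = 0.00272, 0.00729 and 0.0351). Without background correction the Nfkbie fold was 3.31 in place of 5.20 and the Bcl3 fold 1.91 in place of 2.98. Bcl3 did not pass with no filter on dim probes (adjusted p = 0.0647). The Tnfaip3 call was lost in 6 of 16 alternatives (adjusted p up to 0.162), 4 of which leave out an array (withaferin A arrays 1 and 2, untreated arrays 1 and 3). The fifth was Tnip1, which binds the Tnfaip3 protein, named after its values were seen. Rela, the main activating subunit, had a change of -0.10 and was not called (adjusted p = 0.704). The list's count was 3 without withaferin A array 1 or 2 or untreated array 3.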

How the data were processed

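Per the labels, biotin-labelled total RNA of 6 samples was hybridised. The authors deposited raw probe intensity values and, beside each, a score named a detection p in the file headers; since it climbs with brightness, 1 minus the score was taken as p. A second table, also deposited by the authors, carries log2 values in which the columns of both arrays with 1 number mirror each other (largest error 1.00e-06), that is, values centred within pairs. Its pair differences correlated at 0.963, 0.966 and 0.961 with those used here, which sets its direction. Column medians were 0.000566, 0.00265 and 0.00108 for withaferin A arrays 1 to 3 and -0.000566, -0.00265 and -0.00108 for untreated arrays 1 to 3. How that table was normalized between arrays, and which scanner software was used, is unknown here.

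Background correction used normexp with negative controls that limma 3.58.1 (R 4.3.3) infers from detection p (function neqc, offset 16), followed by quantile normalization and log2. Of 45281 probes, 19077 (9756 genes) passed the detection filter and entered lmFit and eBayes, two-sided. Of 34885 probes with 1 symbol, 34807 were found in the RefSeq gene table, which changed 0 symbols. Every tested member is named, with up to 4 called genes of each list. The members and lists were chosen with earlier results of these data known. The fit was tested on simulated data. The 16 alternatives changed background correction, normalization, filter, replicate block, array weights, probe choice or the number of arrays, 1 choice at a time, except for intensity trend with robust variance and for the deposited value table, which changed values and model (paired differences) together. With 3 arrays a group, precision is limited. The protein features planned were not analysed here.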

Additional observations from a re-analysis of the deposited data

How the results depend on the processing

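Vcam1 and Itga1 kept direction and call under all 16 alternatives, with changes of -3.02 to -2.08 and -1.92 to -1.36. Mcam lost its call at its dimmest probe (-0.88, adjusted p = 0.0770) and Alcam in 4 alternatives (adjusted p up to 0.0924). Members called numbered 8 in the deposited value table (3 higher, 5 lower), where values and model both differ and 27.5% of all genes passed, and 3 to 4 with 1 array left out. Without normalization between arrays the median change of all tested probes was -0.22, and medians were -0.27 for cadherins, -0.55 for immunoglobulin-type genes, -0.28 for alpha chains, -0.66 for other Itgb-named genes and -0.37 for all members. Without background correction they were -0.13 for immunoglobulin-type genes and -0.10 for all members. The member median was -0.087 with median scaling, the immunoglobulin-type median -1.09 with the stricter filter, which left fewer genes, and the alpha chain median 0.13 with the dimmest probe. Otherwise the cause was not tested.

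The share called among the 9756 tested genes was 6.83% as reported, 17.3% without normalization between arrays, 27.5% in the value table, 22.04% with array weights, 3.43% with no filter, 6.16% with the dimmest probe and 2.48% to 9.10% with 1 array left out. The 3.43% with no filter covers those same genes, whereas list counts with no filter also cover listed genes that the filter removes. Calls among focal adhesion genes numbered 9 without normalization between arrays, 8 in the value table and 6 with array weights, whose estimate did not converge fully. Catenins numbered 2 in the value table. Junction receptors numbered 9 in the value table, 10 with array weights, 3 with no filter, 3 with the dimmest probe and 1 to 6 with 1 array left out. Ligands numbered 1 with no filter and 1 to 2 with 1 array left out, NF-kB genes 2 with no filter and 3 to 6, and switch factors 2 without normalization between arrays, 2 in the value table and 0 with the dimmest probe.

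Signs of members that were never called turned as follows. Ncam1 was -0.029 without normalization between arrays, -0.14 with array weights and -0.061 to 0.24 with 1 array left out. Itga2b was -0.14 without that normalization and -0.16 to 0.28 with 1 array left out. Itga6 was -0.27 without that normalization, -0.0023 in the value table, -0.029 with array weights and -0.19 to 0.14 with 1 array left out. Itgav was 0.51 at its dimmest probe. Itga8 was -0.26 to 0.054 and Itgb1bp1 -0.16 to 0.12 with 1 array left out.

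Arrays were not treated as paired by replicate number. Deviations from group means correlated at 0.27, -0.04 and 0.32 for numbers 1, 2 and 3, so not every number had a positive correlation, and shared effects of a number were not shown to be absent. With the replicate number as a block 5 members passed, the fifth being Itgb3bp (adjusted p = 0.0290), and 1023 genes in place of 666, while Vcam1 stayed at -2.75 (adjusted p = 5.97e-05). Withaferin A array 2 correlated best with untreated array 1.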
